A study of Homo sapiens with 6 samples.

Results

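The replication-dependent histone genes are the protein-coding genes of the HIST1, HIST2, HIST3 and HIST4 clusters, taken here as every protein_coding row of the deposited count table whose gene name starts with HIST, a cluster digit and H. The rule found 83 of the 63677 genes in the table and used no measured value. By histone type these were 6 genes of linker histone H1, 21 of H2A, 20 of H2B, 19 of H3 and 17 of H4, and by cluster 57 of HIST1, 22 of HIST2, 3 of HIST3 and 1 of HIST4. The 83 rows carried 71 distinct symbols, because 12 rows repeat a symbol under a further gene identifier, and these 12 had 0 counts in every library.

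Replication-dependent histone genes supply the histones that package newly copied DNA, and their transcripts rise at the start of S phase and are degraded when replication ends. Their mRNAs are the metazoan exception that carries no poly(A) tail: the transcript ends just after a conserved stem-loop, which is bound by stem-loop binding protein (SLBP) and cut with the help of the U7 snRNP. NPAT, a substrate of cyclin E and CDK2, activates their transcription in histone locus bodies. Human embryonic stem cells divide fast with a short G1 phase, and the many near-identical copies of each type make single genes hard to follow.

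RNA-seq libraries came from 2 human embryonic stem cell lines, each in a naive and in a primed state: Royan H6, called RH6, and Royan H5, called RH5. Naive RH6 cells at passage 10 and naive RH5 cells at passage 17 gave 2 libraries each; the naive cells were 2a2iL-induced and grown in 2iL medium. Primed RH6 cells at passage 20 and primed RH5 cells at passage 16 gave 1 library each and were grown in medium with bFGF, and all 4 groups shared feeder layers of inactivated mouse embryonic fibroblasts (MEF). State and medium changed together and cannot be told apart, and passage also differed between all groups compared. Nothing in the labels says whether the naive duplicates were grown separately, so the spread between them may be technical. Every p-value rests on that spread, and those over both lines also on how far the state effect differed between lines.

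Total counts ran from 13457979 to 14663982 per library, so depth differed little. Of 8 markers of pluripotent cells, 0 rose and 4 fell over both lines (SALL4, DPPA4, TERF1 and SOX2). Their summed level in naive cells was 0.839 of primed in RH6 and 0.587 of primed in RH5. POU5F1, one of the 8, ranged from 310.4 to 504 CPM (counts scaled to a common library size) over the 6 libraries. Of the tested naive pluripotency markers 4 of 6 rose in naive cells, among them DNMT3L, and 7 of 7 primed markers fell. The groups also differed in markers of other cells: 5 of 7 tested fibroblast markers rose and 1 fell, and their summed level was 818, 638, 352 and 410 CPM in the naive libraries, against 265 and 260 CPM in the primed ones. Mesendoderm markers summed to 342, 340.4, 248 and 224 CPM in naive libraries, against 20.6 and 58.0 CPM in primed ones, and 3 of 8 rose and 1 fell. Neural markers summed to 707, 957, 841 and 1120 CPM in naive libraries, against 1296 and 791 CPM in primed ones, with 6 of 8 lower. The part of these cells, and of mouse reads from the feeders, in the histone values was not tested. In bulk RNA, fewer cells of a type and less RNA per cell cannot be told apart.

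The stem-loop is what makes these transcripts different from other mRNAs, so the sites of members described below are shown, read from the GENCODE v29 transcripts, with the stem and loop in capitals and flanking bases in lower case:
HIST3H2A: ataaaGGCTCTTTTCAGAGCCacctactat
HIST3H2BB: ccaaaGGCTCTTTTCAGAGCCacccacacg
HIST1H2AE: ccaaaGGCTCTTTTCAGAGCCacccacctt
HIST1H2BC: ccaaaGGCTCTTTTAAGAGCCacccagata
HIST1H4H: ccaaaGGCCCTTTTCAGGGCCgcccacttt
HIST4H4: caaaaGGCCCTTTTCAGGGCCcccaaactg
The word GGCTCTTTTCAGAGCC stood in 17 of the 71 symbols, and 29 had it with up to 2 mismatches. Every one of the 5 H4 members with a site had the form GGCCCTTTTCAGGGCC. The form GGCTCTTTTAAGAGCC stood in 5 members, HIST1H2BC and HIST1H2BD among them. Only 18 of 19669 protein-coding genes in that annotation hold the exact word, and 17 of them are members. How far the annotated transcripts read here run on past the site varied. It was 8 bases in HIST3H3, 51 in HIST1H2AE, 116 in HIST1H2BC, 390 in HIST3H2A and 1917 in HIST3H2BB. Where no site was found, only these letters are missing from the annotated transcript, and nothing is said of the RNA in the cells.

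The promoters of 4 members called between states are shown next, so that the letters searched for can be seen in place. They span 250 bases before to 50 after the start, 5′ to 3′ on the gene's own strand, from RefSeq with build GRCh38.p14. Capitals mark matches on either strand to the TATA box TATAAA, the CCAAT box CCAAT, the octamer ATGCAAAT and the H1 box AAACACA, 4 motifs that do not overlap each other here.
HIST1H1A, chr6:26017738-26018037, minus strand: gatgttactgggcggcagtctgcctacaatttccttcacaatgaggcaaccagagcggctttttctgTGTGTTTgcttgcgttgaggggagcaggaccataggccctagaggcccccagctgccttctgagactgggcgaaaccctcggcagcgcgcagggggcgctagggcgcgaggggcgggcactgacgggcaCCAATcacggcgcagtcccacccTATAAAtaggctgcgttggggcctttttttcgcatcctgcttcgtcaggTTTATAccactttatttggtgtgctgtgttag
HIST1H2BB, chr6:26043664-26043963, minus strand: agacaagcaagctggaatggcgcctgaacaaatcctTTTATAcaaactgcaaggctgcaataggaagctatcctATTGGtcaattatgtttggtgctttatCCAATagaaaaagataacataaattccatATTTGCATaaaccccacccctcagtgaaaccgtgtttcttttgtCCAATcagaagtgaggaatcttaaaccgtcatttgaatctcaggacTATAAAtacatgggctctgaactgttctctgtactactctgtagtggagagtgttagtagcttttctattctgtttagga
HIST1H3C, chr6:26045134-26045433, plus strand: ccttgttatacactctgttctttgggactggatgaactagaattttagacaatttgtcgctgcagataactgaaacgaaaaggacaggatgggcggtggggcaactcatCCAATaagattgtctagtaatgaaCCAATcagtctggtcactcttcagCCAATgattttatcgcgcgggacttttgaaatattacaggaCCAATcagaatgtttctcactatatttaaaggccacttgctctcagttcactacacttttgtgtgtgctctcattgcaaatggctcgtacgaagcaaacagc
HIST3H2A, chr1:228457824-228458123, minus strand: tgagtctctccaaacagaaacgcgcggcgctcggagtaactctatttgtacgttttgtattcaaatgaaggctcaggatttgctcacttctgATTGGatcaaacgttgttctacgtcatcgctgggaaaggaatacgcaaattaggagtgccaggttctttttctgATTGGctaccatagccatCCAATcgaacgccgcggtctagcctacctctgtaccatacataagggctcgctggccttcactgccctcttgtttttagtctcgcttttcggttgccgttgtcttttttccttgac
HIST3H2BB starts in the opposite direction at chr1:228457853-228458152 on the plus strand, so the HIST3H2A window holds most of its promoter read backwards. RefSeq promoters matched 61 members. TATAAA stood in 41 of the 61, against 11.5% of 35116 promoters of the same length. CCAAT stood in 51 of 61 against 34.6%, in every matched H1, H2A, H2B and H3 promoter but in only 3 of 13 H4 promoters. The octamer stood in 11 of 16 H2A and 9 of 13 H2B promoters and in 0 of the H1, H3 and H4 promoters, against 1.77% of all. The H1 box stood in 6 of 6 H1 promoters, against 5.64% of all, and was added as a motif after the data had been seen. These matches describe letters and are not binding sites.

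Of the 83 members, 59 passed the filter on low counts and were tested. The other 24 rows belong to 12 symbols that were not tested and to the repeated rows. HIST2H3A, HIST2H3C, HIST2H3PS2 and HIST2H4A had 0 counts in all 6 libraries; by counting error alone a count of 0 allows up to 0.201 to 0.224 CPM per library. HIST2H2AA3, HIST2H2AA4 and HIST2H4B had 1, 4 and 2 counts over the 6 libraries. Most of these 7 have near-identical copies: of the 75-base windows in HIST2H3A, HIST2H3C and HIST2H2AA3, 0% were unique among the histone cluster genes of GENCODE v29, and in HIST2H2AA4, HIST2H4A and HIST2H4B 3.06%, 3.79% and 2.86%. HIST2H3PS2, also at 0, had 62.3% unique windows. How reads that fit several genes were counted is not given in the sources used here, so no value of a near-identical copy is certain. The tested members HIST1H2AJ, HIST1H2AM, HIST1H4J, HIST2H3D and HIST1H2AI also had few unique windows, 17.6%, 14.7%, 20.4%, 29.7% and 39.9%, and HIST1H2AK and HIST1H4K had 0%. All 75-base windows were unique in 39 of the 59.

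Histone transcripts were measured in these libraries although the molecule field reads polyA RNA, while the library kit is one for total RNA. The members together had 3145 and 3829 CPM in naive RH6, 3841 and 3913 CPM in naive RH5, and 3357 CPM in primed RH6 and 3394 CPM in primed RH5. The naive to primed ratio of the sum was 1.04 ± 0.14 in RH6 and 1.14 ± 0.015 in RH5 (SD over the 2 naive libraries of the line). The sum thus overlapped between states in RH6, and in RH5 both naive libraries were above the primed one.

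The naive duplicates differed from each other across the members. In RH6, replicate 1 was lower than replicate 2 in 49 of 59 tested members, with a median difference of -0.33 on the log2 scale, against 0.02 over all 19434 genes tested. Naive RH5 replicate 1 was lower than replicate 2 in 35 of 59, with a median of -0.11. Other RNAs that lack a poly(A) tail moved with them: the 12 such RNAs summed to 4410 and 8026 CPM in naive RH6, 6842 and 9120 CPM in naive RH5, and 10372 CPM in primed RH6 and 8714 CPM in primed RH5. Their RN7SL1, the RNA of the signal recognition particle, had 499.5 and 1489 CPM in naive RH6, 751 and 1454 CPM in naive RH5, 1591 CPM in primed RH6 and 959 CPM in primed RH5. S-phase genes did not: they summed to 3757 and 3748 CPM in naive RH6. The part of this difference between duplicates in the member values was not tested.

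**Figure D1:**
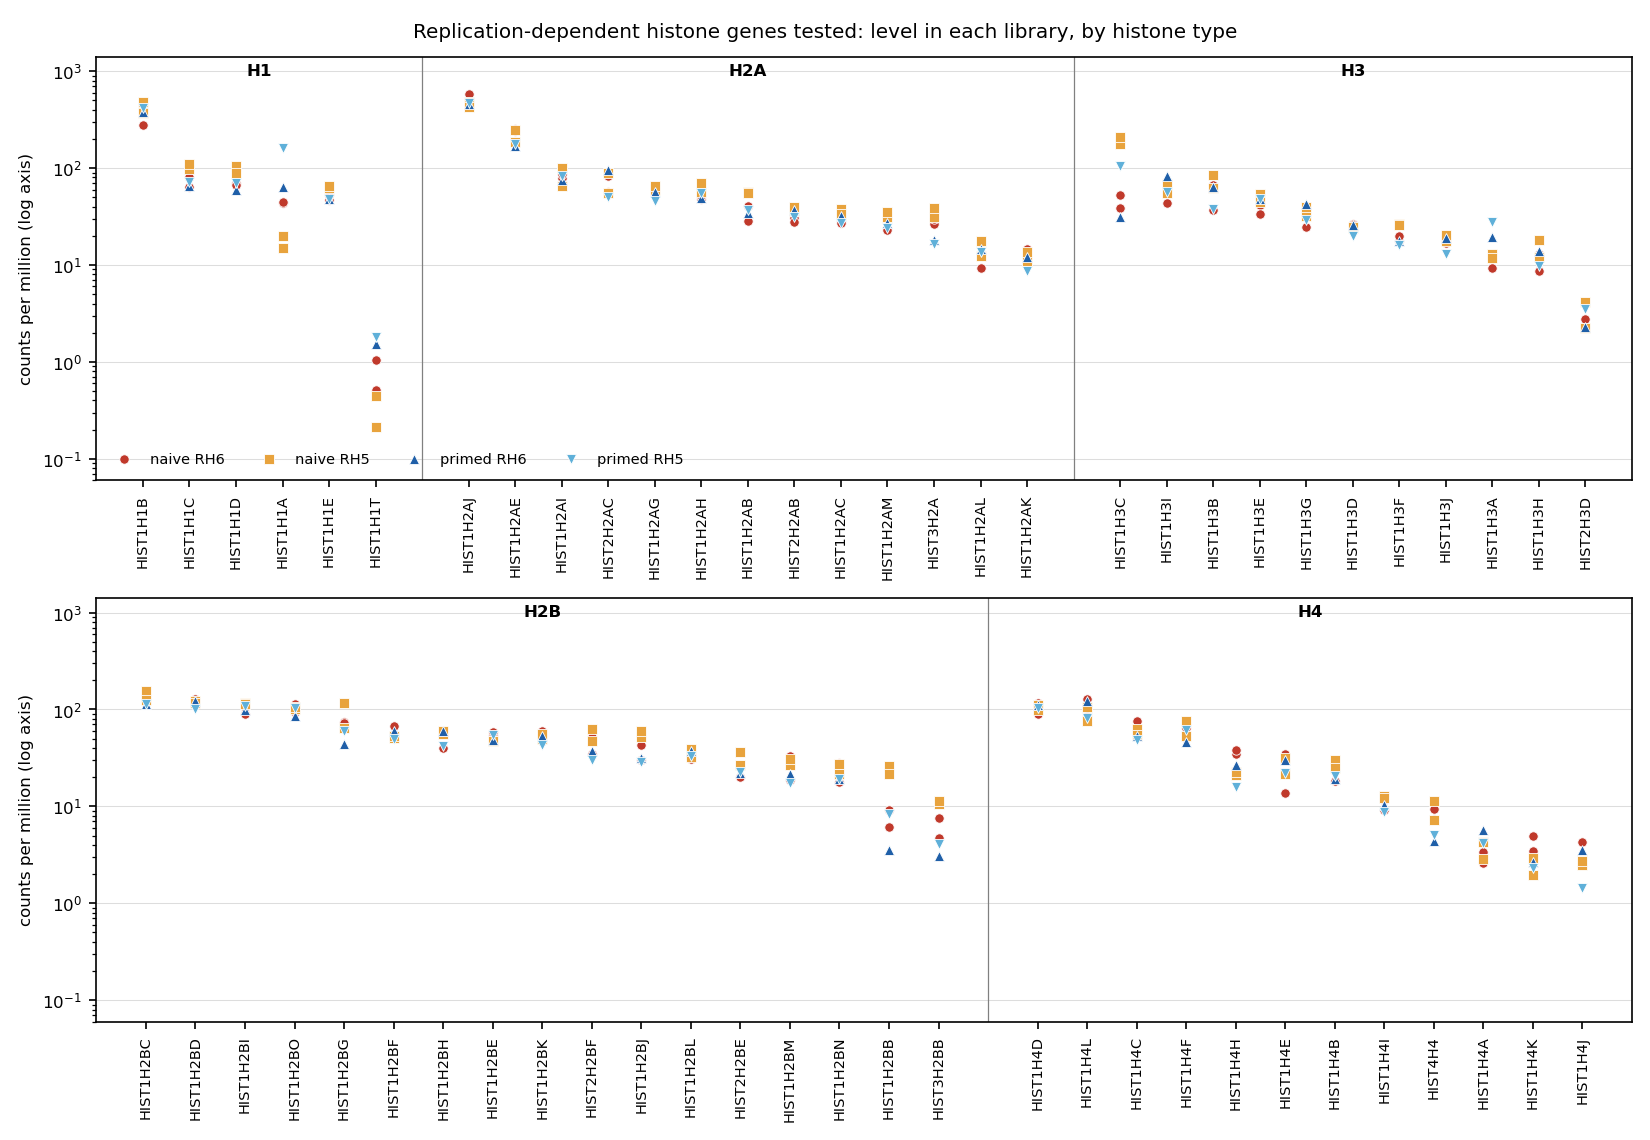
Level of each of the 59 tested members in CPM (log axis) in every library, ordered within histone type by mean level; red circles are naive RH6, orange squares naive RH5, dark triangles primed RH6 and light triangles primed RH5. Levels within the H1 type run from HIST1H1B to HIST1H1T, which averaged 0.930, and HIST1H1A, HIST1H3C and HIST1H2BB show libraries far apart.

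The level was uneven among members. HIST1H2AJ, an H2A gene, had 474 and 576 CPM in naive RH6, 484 and 431 CPM in naive RH5, and 459 CPM in primed RH6 and 468 CPM in primed RH5, and gave 13.5% of the summed member level. HIST1H1B, which encodes a linker histone (RefSeq H1-5), had 277 and 408 CPM in naive RH6, 373 and 481 CPM in naive RH5, and 375 CPM in primed RH6 and 419 CPM in primed RH5. Neither gene passed the test between states in either line, and naive and primed values overlapped for both. The 10 highest members held 51.5% of the summed level. Per kilobase of annotated exon the order began with HIST1H2AJ at 1246, HIST1H1B at 571, HIST1H2AE at 417 and HIST1H4D at 339 CPM per kilobase. At the low end, HIST1H1T averaged 0.930 CPM over the 6 libraries.

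Linker histones bind the DNA that enters and leaves the nucleosome, and different H1 genes are used in different cells. HIST1H1A (RefSeq H1-1) showed the widest change of any member. It had 44.0 and 44.6 CPM in naive RH6, 19.7 and 15.01 CPM in naive RH5, and 63.5 CPM in primed RH6 and 161 CPM in primed RH5. All 4 naive libraries were below both primed libraries, and the gap was far wider in RH5. Over both lines it fell by 2.05 ± 0.54 (log2 scale, SE; edgeR quasi-likelihood test, adjusted p = 0.032), and leaving out any 1 naive library put the adjusted p between 0.059 and 0.128. The value rests on the primed library used: it was -3.20 without primed RH6 and -0.49 without primed RH5. RH6 alone gave a log2 fold change of -0.52 ± 0.15 (edgeR adjusted p = 0.022). RH5 alone gave -3.21 ± 0.15, for which edgeR's adjusted p was 3.2e-07.

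HIST1H1A was also the only tested member whose naive to primed change was called different in the 2 lines, RH6 minus RH5: 2.69 ± 0.22 on the log2 scale (adjusted p = 5.3e-05), against 5.86% of all tested genes called higher and 6.16% called lower in that comparison. At an unadjusted p under 0.05, 14 members differed, and with 1 naive library left out 4 to 13 members were called, 13 of them without naive RH6 replicate 2. The share of HIST1H1A in all H1 counts was 8.76% (95% Wilson interval 8.13% to 9.44%) and 6.83% (6.33% to 7.38%) in naive RH6, and 2.99% (2.67% to 3.36%) and 1.97% (1.72% to 2.26%) in naive RH5. In primed cells that share was 10.4% (9.78% to 11.04%) in RH6 and 20.9% (20.1% to 21.6%) in RH5; these intervals cover counting error only. HIST1H1B held 54.3% to 63.2% of the H1 counts in each library. The H1 genes together had 502 and 653 CPM in naive RH6, 659 and 762 CPM in naive RH5, and 611 CPM in primed RH6 and 772 CPM in primed RH5.

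**Figure D2:**
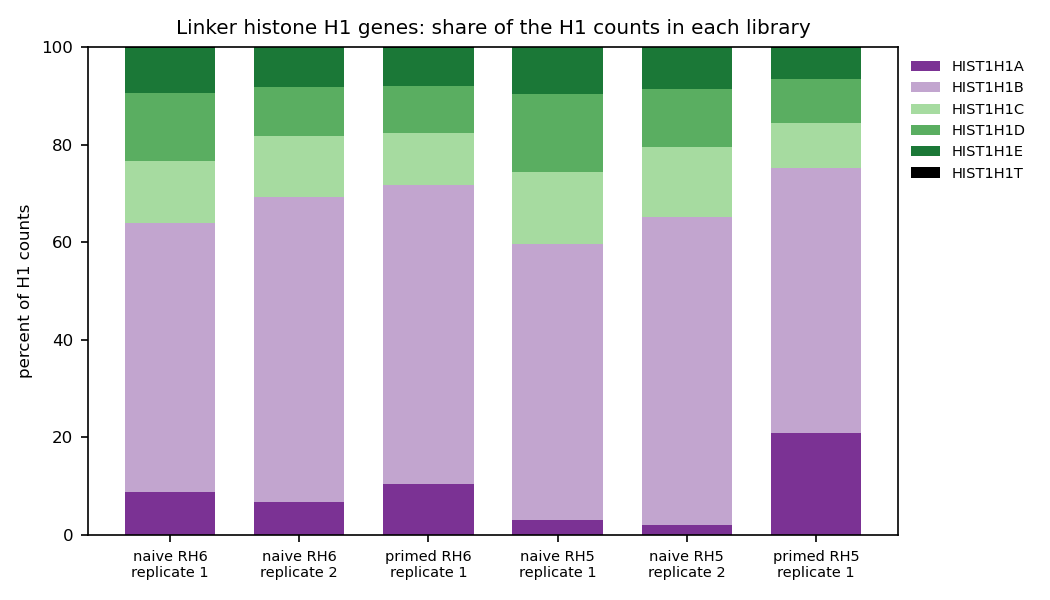
Percent of the counts of all 6 H1 genes that each gene held, 1 bar per library, with naive libraries left of the primed library of the same line. The HIST1H1A segment is 20.9% in primed RH5, against 2.99% and 1.97% in naive RH5.

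Other H1 genes went the opposite way in RH5. HIST1H1C (H1-2), HIST1H1D (H1-3) and HIST1H1E (H1-4) rose there, by 0.53 ± 0.16 (adjusted p = 0.024), 0.49 ± 0.13 (adjusted p = 0.018) and 0.40 ± 0.13 (adjusted p = 0.039) on the log2 scale with SE. In RH6 their log2 fold changes were 0.16, 0.20 and 0.06 and none passed the test, but the difference between lines did not pass either (adjusted p = 0.31, 0.37 and 0.28). HIST1H1E lost its RH5 call with upper-quartile factors, with no scaling factors, in DESeq2 and without either naive RH5 library, and HIST1H1D lost it without naive RH5 replicate 1. HIST1H1C, for example, had 63.8 and 80.8 CPM in naive RH6, 98.0 and 109.9 CPM in naive RH5, and 64.7 CPM in primed RH6 and 71.8 CPM in primed RH5. The testis gene HIST1H1T had 15 and 7 counts in naive RH6, 3 and 6 counts in naive RH5, 23 counts in primed RH6 and 25 counts in primed RH5. It missed the threshold over both lines (log2 fold change -1.64 ± 0.51, adjusted p = 0.055) and fell in RH5 alone (-2.44 ± 0.63, adjusted p = 0.014), a call that DESeq2 did not make.

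Over both lines 6 of 59 members rose and 2 fell, 10.2% and 3.39%, where 12.1% of the 19434 genes tested rose and 13.6% fell; with upper-quartile factors or no scaling factors the split was 5 and 3. The naive and primed libraries did not overlap for 12 of 59 members, or 20.3%, against 44.3% of all genes tested. The median log2 fold change was 0.17 for the members and -0.01 for all genes tested, and the median absolute value 0.25 against 0.39. The share of members that fell was thus below that of all genes, while the share that rose was close to it. The calls were spread over types: 1 of 6 H1, 1 of 13 H2A, 2 of 17 H2B, 2 of 11 H3 and 2 of 12 H4.

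The H2B gene HIST1H2BB had the largest rise. It had 6.17 and 9.20 CPM in naive RH6, 26.2 and 21.6 CPM in naive RH5, and 3.56 CPM in primed RH6 and 8.40 CPM in primed RH5. Within each line both naive libraries were above the primed one, but naive RH6 replicate 1 was below primed RH5, so the states overlapped across lines. The log2 fold change over both lines was 1.32 ± 0.23 (SE; edgeR adjusted p = 0.0077). The RH6 value was 1.11 ± 0.30 and the RH5 value 1.51 ± 0.25. With no term for the line the adjusted p was 0.18.

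HIST1H3C, the next histone gene in the HIST1 order and the highest H3 member, also rose. It had 38.8 and 52.8 CPM in naive RH6, 178 and 208 CPM in naive RH5, and 31.4 CPM in primed RH6 and 106 CPM in primed RH5. Within each line both naive libraries were above the primed one, although primed RH5 was above both naive RH6 libraries. The log2 fold change over both lines was 0.71 ± 0.16 (SE; adjusted p = 0.021), 0.54 ± 0.19 in RH6 and 0.87 ± 0.18 in RH5; without naive RH6 replicate 2 the RH6 value was 0.31 (adjusted p = 0.14). Over both lines the adjusted p was 0.059 to 0.071 without naive RH6 replicate 2 or either naive RH5 library, and 0.528 with no term for the line.

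HIST3H2A and HIST3H2BB face away from each other across the promoter shown above and rose together. HIST3H2A had 26.3 and 29.8 CPM in naive RH6, 31.1 and 38.4 CPM in naive RH5, and 18.0 CPM in primed RH6 and 16.3 CPM in primed RH5. HIST3H2BB had 4.77 and 7.51 CPM in naive RH6, 10.5 and 11.4 CPM in naive RH5, and 3.09 CPM in primed RH6 and 4.13 CPM in primed RH5. For both genes all 4 naive libraries were above both primed libraries. The log2 fold changes over both lines were 0.86 ± 0.17 (SE; adjusted p = 0.012) and 1.20 ± 0.26 (adjusted p = 0.016). HIST3H2BB lost its call when naive RH6 replicate 2 or either naive RH5 library was left out, with adjusted p between 0.054 and 0.058.

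The single-gene HIST4 cluster moved the same way. HIST4H4 had 7.36 and 9.49 CPM in naive RH6, 11.3 and 7.32 CPM in naive RH5, and 4.36 CPM in primed RH6 and 5.07 CPM in primed RH5, with no overlap between states. It rose by 0.91 ± 0.25 on the log2 scale (SE; adjusted p = 0.036), and without naive RH6 replicate 1, naive RH6 replicate 2 or naive RH5 replicate 1 the adjusted p was 0.064, 0.11 and 0.11. All 3 tested members outside HIST1 and HIST2 therefore rose, while the 5 tested HIST2 members had edgeR adjusted p between 0.14 and 0.99. HIST1H4H, the other H4 gene called, had 34.6 and 38.0 CPM in naive RH6, 21.0 and 22.5 CPM in naive RH5, and 26.4 CPM in primed RH6 and 15.7 CPM in primed RH5. It rose by 0.46 ± 0.12 (SE; adjusted p = 0.033) and lost the call without any 1 naive library, with upper-quartile factors, with no scaling factors and with no filter on low counts.

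HIST1H3A, an H3 gene that lies next to HIST1H1A, fell. It had 11.5 and 9.35 CPM in naive RH6, 13.01 and 11.8 CPM in naive RH5, and 19.3 CPM in primed RH6 and 27.7 CPM in primed RH5. No naive library reached either primed library. The log2 fold change was -1.03 ± 0.16 over both lines (SE; adjusted p = 0.0042), -0.88 ± 0.18 in RH6 and -1.16 ± 0.17 in RH5, and the call held when any 1 library was left out. With both naive libraries numbered 1 left out, or the naive libraries of each line summed, 0 of the 59 members were called in edgeR's test. There were 9 and 10 at an unadjusted p under 0.05. Over all genes these fits called only 386 and 1127, against 4996 in the main fit, so calls were lost across the whole gene table.

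**Figure D3:**
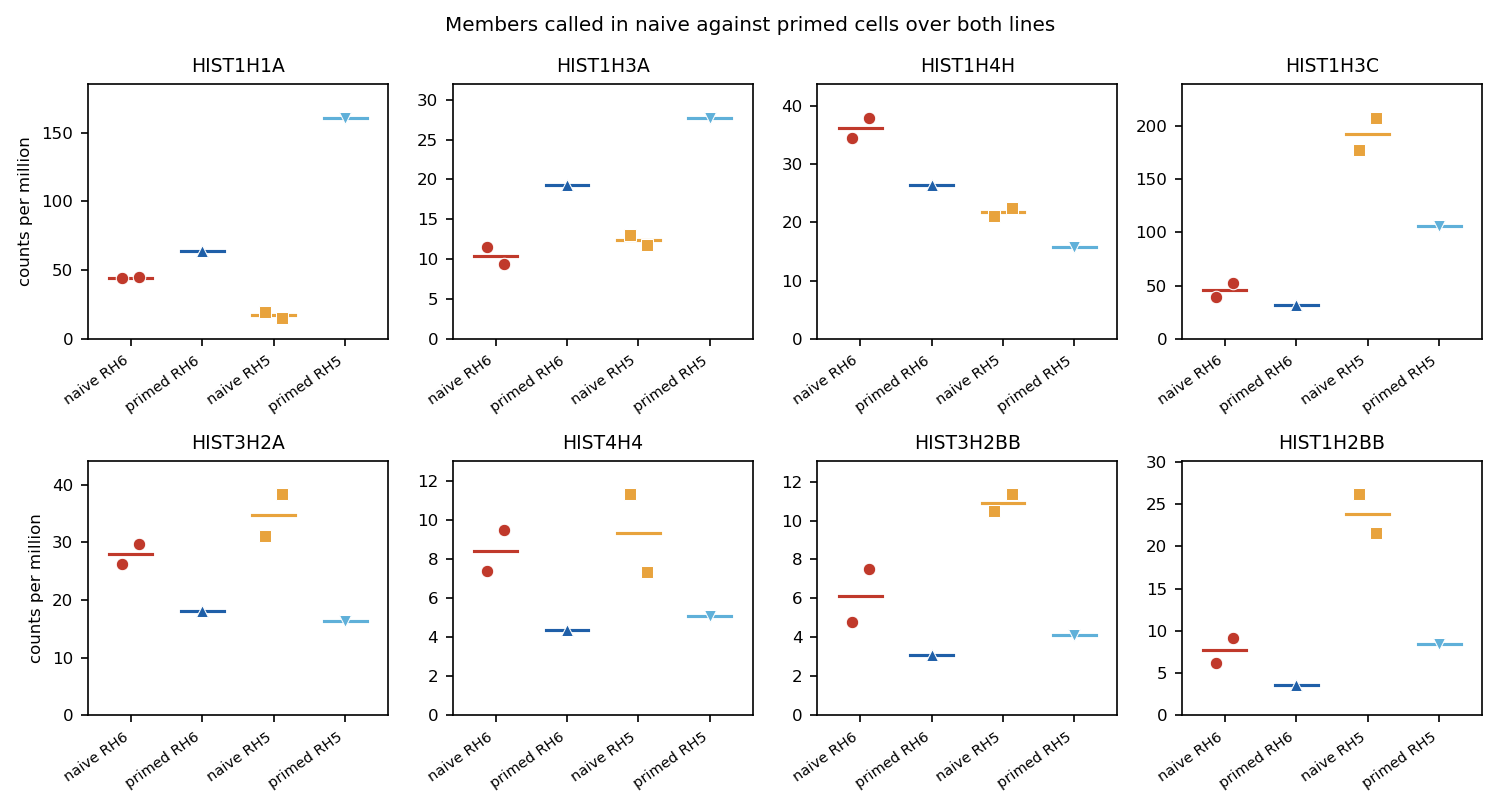
CPM of the 8 members called over both lines in every library, with naive groups left of the primed group of the same line; points are libraries and bars are group means. HIST1H1A and HIST1H3A are lower in naive cells of each line and the other 6 are higher, and HIST1H3C and HIST1H2BB are at their highest in naive RH5.

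In RH6 alone, 7 of 59 members rose and 4 fell, 11.9% and 6.78%, where 16.4% of all genes tested rose and 17.2% fell; the split was 3 and 5 with upper-quartile factors, 4 and 6 with no scaling factors and 3 and 2 in DESeq2. In RH5 alone, 15 rose and 3 fell, 25.4% and 5.08%, where 16.5% of all genes tested rose and 17% fell; the split was 10 and 3 with upper-quartile factors, 13 and 3 with no scaling factors and 9 and 2 in DESeq2. Without naive RH6 replicate 1 the counts called were 18 in RH6 and 29 in RH5. Each of these fits has 1 primed library per line, which is assumed to vary like the naive duplicates. The 8 members called over both lines were called in the same direction in both lines, except HIST4H4, which missed the threshold in RH5 (0.88 ± 0.31, adjusted p = 0.052). In DESeq2 the RH6 calls of HIST1H1A, HIST1H4H, HIST3H2A, HIST3H2BB and HIST4H4 were lost, and so was the RH5 call of HIST1H4H.

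**Figure D4:**
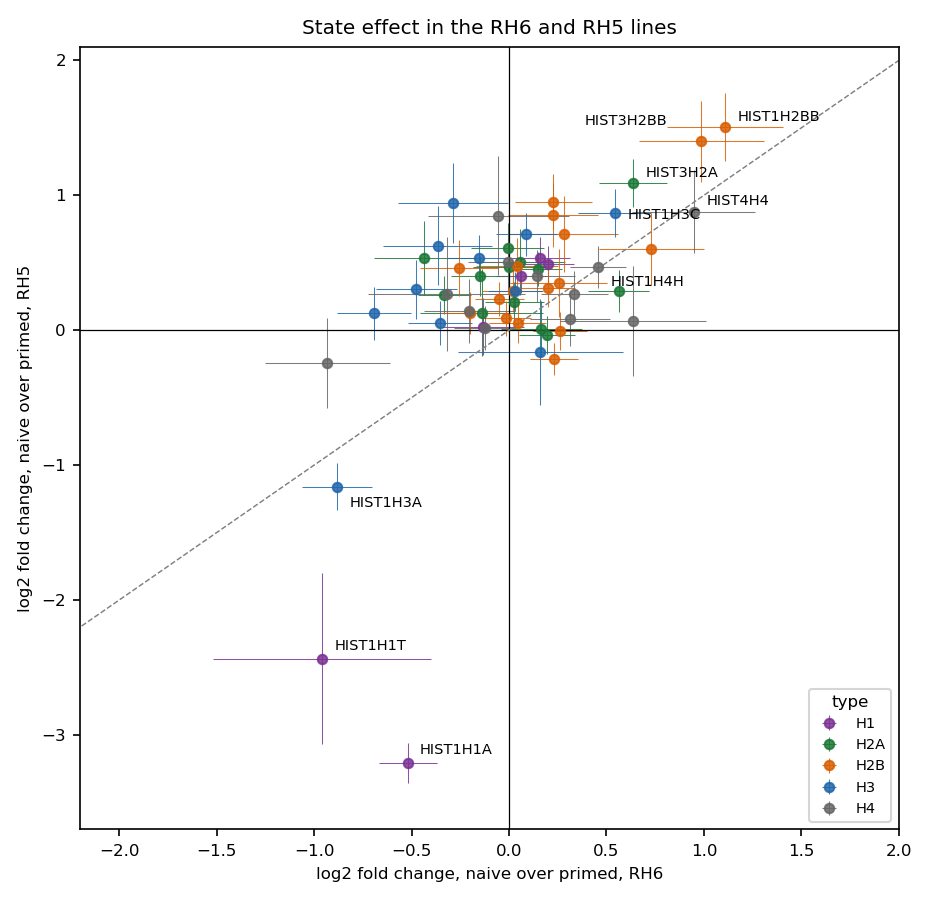
State effect (log2 fold change, naive over primed) of each tested member in RH6 on the horizontal axis and RH5 on the vertical axis, coloured by histone type, with bars of 1 SE; the dashed line marks equal effects. HIST1H1A lies at -0.52 and -3.21, and 45 of the 59 members lie above the dashed line.

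Some of the highest members were called in 1 line only, which does not show that the lines differ. In RH6 the H2A gene HIST1H2AE rose: it had 241 and 255 CPM in naive RH6, against 168 CPM in primed RH6, a log2 fold change of 0.56 ± 0.16 (SE; adjusted p = 0.019). HIST1H3I had 43.3 and 60.2 CPM in naive RH6, against 83.7 CPM in primed RH6, and fell by 0.69 ± 0.19 (adjusted p = 0.017). In RH5 its values overlapped, with 54.7 and 68.2 CPM in naive cells and 56.3 CPM in primed cells. HIST1H3B, another H3 gene, rose in RH5, with 62.2 and 84.2 CPM in naive RH5 against 38.0 CPM in primed RH5 (0.94 ± 0.30, adjusted p = 0.034; the call was lost with upper-quartile factors and in DESeq2), and in RH6 had 37.4 and 67.6 CPM in naive cells against 64.0 CPM in primed cells.

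The H3 sums lay below primed in RH6 and above primed in RH5, but 0 of 11 tested H3 members were called for the difference between lines. H3 members summed to 269 and 338 CPM in naive RH6 against 367 CPM in primed RH6, a ratio of 0.83 ± 0.13, and to 477 and 550.0 CPM in naive RH5 against 367 CPM in primed RH5, a ratio of 1.399 ± 0.14 (SD over the 2 naive libraries). HIST1H3C alone gave 38.8 and 52.8 CPM of the naive RH6 sums and 178 and 208 CPM of the naive RH5 sums. H2A ratios were 1.13 ± 0.13 in RH6 and 1.14 ± 0.051 in RH5, H2B ratios 1.10 ± 0.10 and 1.24 ± 0.035, and H4 ratios 1.02 ± 0.23 and 1.13 ± 0.022. These sums are descriptions and carry no test.

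The highest H2B and H4 members did not pass the test in either line. HIST1H2BC had 133 and 132 CPM in naive RH6, 156 and 125 CPM in naive RH5, and 115 CPM in primed RH6 and 113 CPM in primed RH5 (log2 fold change over both lines 0.26 ± 0.12, adjusted p = 0.16). HIST1H2BD and HIST1H2BI averaged 119 ± 7.4 and 107 ± 12 CPM in the naive libraries (SD, 4 libraries), against 113 and 104 CPM as the mean of the 2 primed ones. Among H4 genes, HIST1H4D averaged 104 ± 13 CPM in naive and 108 CPM in primed libraries, HIST1H4L 99.1 ± 24 CPM in naive and 103 CPM in primed libraries, and HIST1H4C 62.7 ± 9.5 CPM in naive and 50.8 CPM in primed libraries. HIST1H2AI, an H2A member with few unique windows, averaged 83.3 ± 15 CPM in naive and 78.7 CPM in primed libraries. A missed threshold does not show that these levels are equal.

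Of the members, 8 have been reported to make polyadenylated transcripts as well. Over both lines 1 of these 8 rose, HIST4H4, and 0 fell in edgeR's test; 12.5% higher stands beside 12.1% of all genes tested. They had a median log2 fold change of 0.26, against 0.17 for all tested members. The other 7 were HIST1H1C, HIST1H2AC, HIST1H2BC, HIST1H2BD, HIST1H2BJ, HIST1H2BK and HIST2H2BE. In RH5 HIST1H1C and HIST1H2BJ rose. HIST1H2BJ, an H2B gene, had 30.4 and 43.4 CPM in naive RH6, 52.4 and 59.8 CPM in naive RH5, and 31.5 CPM in primed RH6 and 28.97 CPM in primed RH5. Its RH5 fold change was 0.95 ± 0.20 (log2 scale, SE; edgeR adjusted p = 0.0049). Of the 4 genes known from testis, HIST1H2AA, HIST1H2BA and HIST3H3 had 2, 22 and 7 counts over the 6 libraries and only HIST1H1T was tested.

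The cell lines were compared in the naive state, where each has 2 libraries. Naive RH6 was at passage 10 and naive RH5 at passage 17, so line and passage cannot be told apart here. HIST1H3C and HIST1H2BB were lower in naive RH6, and HIST1H1A and HIST1H4H were higher. Of 59 members, 2 were higher and 11 lower in naive RH6 than in naive RH5, 3.39% and 18.6%, where 12% of all genes tested were higher and 13.5% lower. The median log2 difference was -0.23. HIST1H3C, with 38.8 and 52.8 CPM in naive RH6 against 178 and 208 CPM in naive RH5, differed by -2.08 ± 0.15 (SE; edgeR adjusted p = 8.2e-06). HIST1H2BB, with 6.17 and 9.20 CPM in naive RH6 against 26.2 and 21.6 CPM in naive RH5, differed by -1.64 ± 0.20 (adjusted p = 0.00023).

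HIST1H1A, with 44.0 and 44.6 CPM in naive RH6 against 19.7 and 15.01 CPM in naive RH5, differed by 1.35 ± 0.13 (edgeR adjusted p = 7.2e-05). In primed cells its order was the other way, with 63.5 CPM in RH6 against 161 CPM in RH5, while HIST1H3C kept its order with 31.4 CPM in RH6 against 106 CPM in RH5. HIST1H4H was higher in naive RH6 by 0.74 ± 0.12 (adjusted p = 0.0014). HIST1H1C, HIST1H1D and HIST1H1E were lower in naive RH6, with differences of -0.52, -0.53 and -0.37. The remaining lower members were HIST1H2AB, HIST2H2AB, HIST1H2BJ, HIST3H2BB, HIST1H3E and HIST1H3F. Without naive RH6 replicate 1 the split was 7 higher and 8 lower, and without replicate 2 it was 2 and 23.

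Most HIST1 members with a change over both lines lay at one end of the cluster. From HIST1H1A to HIST1H3C, the third to the tenth gene in the order, 2 of 8 tested members rose and 2 fell, and the median absolute log2 fold change was 0.65. Of the 43 tested members after HIST1H3C, 1 rose, HIST1H4H, and 0 fell, with a median absolute value of 0.17. Of all genes tested 12.1% rose and 13.6% fell. Other comparisons had more calls in the later stretch. Between the naive lines 1 of the 8 was higher and 3 lower in RH6, and 1 of the 43 was higher and 6 lower. The RH5 calls after HIST1H3C included HIST1H1C, HIST1H1D and HIST1H1E. This boundary was drawn after the values had been seen, so it is a description with no test. The first stretch held members of opposite direction side by side: HIST1H1A and HIST1H3A fell, and HIST1H2BB and HIST1H3C rose.

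**Figure D5:**
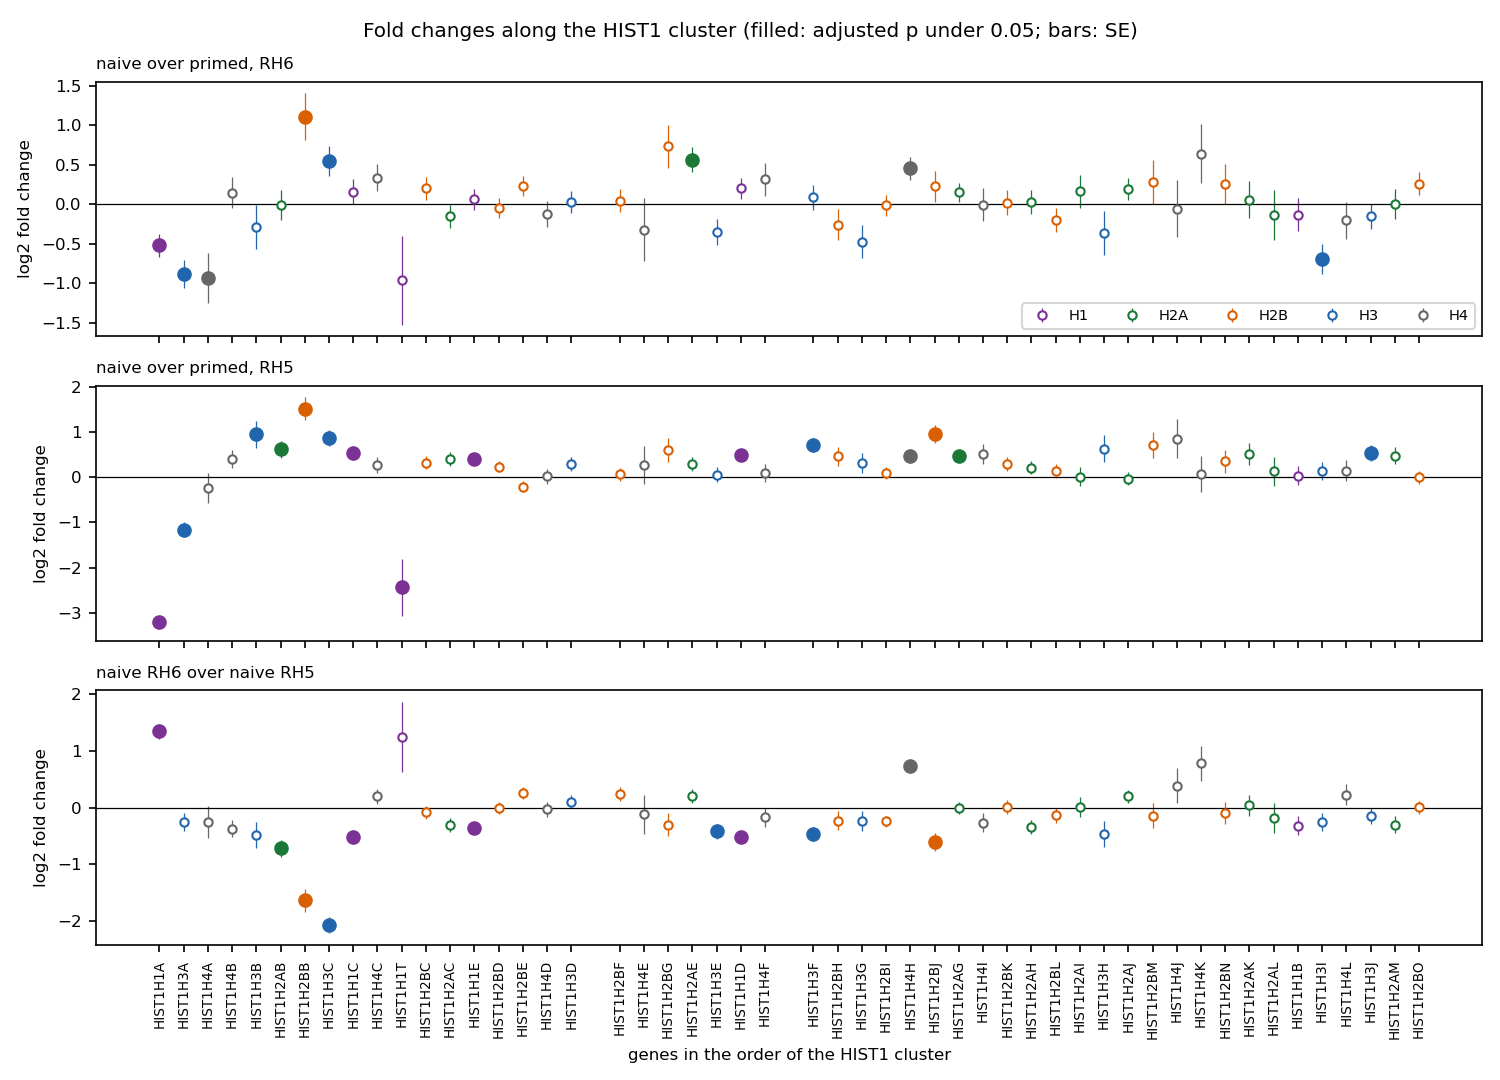
Log2 fold change of tested HIST1 members in the order of the cluster, for naive over primed in RH6, naive over primed in RH5, and naive RH6 over naive RH5; bars are 1 SE and filled points passed an adjusted p of 0.05. HIST1H1A is at -0.52, -3.21 and 1.35 at the left end.

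H2A and H2B genes often sit as pairs that start apart from each other across a shared promoter. Only neighbours whose annotated gene spans do not overlap were counted. With starts within 1000 bases there were 11 such pairs, of which 9 had both members tested. HIST1H2AK and HIST1H2BN also start apart by their RefSeq promoters but were not counted. Both were tested, neither was called over both lines, and both had positive fold changes in each line. Among the 9 counted pairs, both members were called over both lines in 1 pair, HIST3H2A and HIST3H2BB, and neither was called in the other 8. The fold changes had the same sign in 6 of 9 pairs in RH6 and 7 of 9 in RH5. Of all 59 tested members 34 had a positive value in RH6 and 51 in RH5, so unpaired members would often share a sign too.

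Over both lines, genes that make and process histone mRNA were called about as often as genes at large, but mostly as lower. Of 27 tested genes for histone transcription and 3′ end formation, 1 rose and 6 fell over both lines. In all 25.9% were called against 25.7% of all genes tested, 3.70% higher and 22.2% lower against 12.1% and 13.6%. The median log2 fold change was -0.13. NPAT, the transcription activator, had 65.7 and 60.9 CPM in naive RH6, 54.9 and 55.2 CPM in naive RH5, and 86.6 CPM in primed RH6 and 69.2 CPM in primed RH5. All naive libraries were below both primed ones, and NPAT fell by 0.39 ± 0.10 (log2 scale, SE; edgeR adjusted p = 0.027). CASP8AP2 (FLASH), a histone locus body component, fell by 0.57 ± 0.12 (adjusted p = 0.017). CSTF2, a cleavage factor, rose by 0.91 ± 0.21 (adjusted p = 0.021). MIF4GD, a partner of SLBP in histone mRNA translation, fell by 0.98 ± 0.25 (adjusted p = 0.027). By line, MIF4GD was called in RH5 and not in RH6, and NPAT in RH6 and not in RH5. SLBP itself stood at 0.17 ± 0.10 (adjusted p = 0.23).

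Histone variants encoded outside the replication-dependent clusters were also set beside the members. Of 12 tested, 3 rose and 1 fell, 25.0% and 8.33%, against 12.1% and 13.6% of all genes tested. CENPA, the centromeric H3, rose by 1.70 ± 0.13 (edgeR adjusted p = 0.00029), and the macroH2A gene H2AFY by 1.07 ± 0.11 (adjusted p = 0.00083). H1F0, the H1 gene of cells leaving the cycle, had 92.3 and 107 CPM in naive RH6, 167 and 184 CPM in naive RH5, and 94.1 CPM in primed RH6 and 64.2 CPM in primed RH5. It rose in RH5 by 1.45 ± 0.14 (adjusted p = 3.4e-05), and the effects differed between lines, RH6 minus RH5, by -1.37 ± 0.19 (adjusted p = 0.0012). H2AFZ and H3F3B, the genes of H2A.Z and H3.3, had log2 fold changes of 0.18 and -0.23 (adjusted p = 0.30 and 0.14). Of 20 histone chaperone genes tested, 0 were called over both lines in edgeR's test, with 3 at an unadjusted p under 0.05, against 25.7% of all genes tested.

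Cell cycle genes were also called about as often as genes at large, but the directions were uneven. Of 35 S-phase genes 1 rose and 8 fell over both lines, 2.86% and 22.9%, against 12.1% and 13.6% of all genes tested. Their median log2 fold change was -0.19 where the histone members had 0.17. Among those that fell was the primase subunit PRIM1, which fell by 1.02 ± 0.13 (edgeR adjusted p = 0.0019). Of 16 G2 and M-phase genes 4 rose and 0 fell, 25.0% and 0%. AURKA was among those that rose, by 0.71 ± 0.13 (edgeR adjusted p = 0.0096). The summed S-phase level was 0.981 of primed in naive RH6 and 0.833 of primed in naive RH5. The part of cell cycle phase in the histone values was not tested.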

How the data were processed

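Counts per gene of 6 RNA-seq libraries were used as the authors deposited them. Per the submitters' processing notes the tools were FastQC, STAR 2.4.0a, featureCounts 1.4.5-p1 of Subread and DESeq2, with builds hg19 and GRCh37.p5; the sources used here do not give the strand or multi-mapping settings. Libraries were grouped by line and state from the labels. Genes passing filterByExpr (minimum count 10, total 15) were fitted in edgeR 4.0.16 with TMM factors and its quasi-likelihood test (R 4.3.3), with Benjamini-Hochberg adjustment over all tested genes and a threshold of 0.05. The fit over both lines had a line term; the other comparisons used 4 groups, in which a lone primed library is assumed to vary like the naive duplicates. Levels are TMM-scaled CPM. The fits were tested on simulated data. DESeq2 1.42.0 and limma 3.58.1 were alternatives, beside other scaling, no filter and leaving out libraries. The duplicates differed beyond sampling noise and were kept apart. The rule for named members took the 3 highest of each type, up to 4 risers and 4 fallers called over both lines, the 4 largest called differences between naive lines, up to 3 called for the difference between lines, and the polyadenylated and testis genes; from other lists, up to 3 genes called over both lines and a few fixed ones. Other genes named, such as HIST1H4H, HIST1H1E, HIST1H2AB, HIST1H3F and H1FX, were chosen after their values were seen. The members and gene lists were chosen with earlier results of these data known. Motifs, stem-loops and 75-base windows were searched with Python 3.11.15.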

Additional observations from a re-analysis of the deposited data

Results flagged for a closer look

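Among the members and the histone variants outside the clusters, in 3 genes the naive to primed effect differed between the lines by the test of that difference, RH6 minus RH5, on the log2 scale. HIST1H1A differed by 2.69 (SE 0.22, edgeR adjusted p = 5.3e-05), with effects of -0.52 in RH6 and -3.21 in RH5. H1F0, a replication-independent H1, differed by -1.37 (SE 0.19, edgeR adjusted p = 0.0012), with effects of 0.08 in RH6 and 1.45 in RH5. H1FX, another H1 outside the clusters, differed by -0.86 (SE 0.20, edgeR adjusted p = 0.021), with effects of -0.36 in RH6 and 0.50 in RH5. Each line has 1 primed library, so line and library cannot be told apart in the primed state.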

How the results depend on the processing

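Counts are of members called. Calls over all genes moved with the setting too. Over both lines they were 4996, 3556 with no line term, 386 without both naive libraries numbered 1 and 1127 with naive libraries summed. With 1 naive library left out they were 2961 to 3345. In DESeq2 they were 4003 in RH6 against 6528, and 3905 in RH5 against 6506. Between naive lines they were 4952, 2856 in DESeq2 and 7405 with the replicate block. For the members the counts follow. Over both lines the count was 8, 4 with no line term, 0 without both naive libraries numbered 1 (an alternative chosen after seeing the data), 0 with naive libraries summed, and 3 to 19 when 1 library was left out, highest without primed RH6. In RH6 it was 11, 5 in DESeq2 and 11 to 18 with 1 library left out. In RH5 it was 18, 11 in DESeq2 and 19 to 29 with 1 left out. For the difference between lines it was 1, 8 with no low-count filter and 4 to 13 with 1 left out. Between naive lines it was 13, 8 in DESeq2, 13 to 25 with 1 left out and 33 with the replicate block. The replicate numbers were not taken as pairing, since the duplicates' differences in the 2 lines correlated at 0.141 over 19434 genes. In a separate calculation by gene set this correlation was 0.196 over all genes tested and 0.382 over the 59 tested members. It was 0.880 over the 12 other RNAs without a poly(A) tail. Of the 59 members, 30 were lower in replicate 1 in both lines. Whether the numbers mark pairs was not tested. The RH5 naive to primed ratio of sums was 1.11 for all members, 1.10 for H4 and 1.09 for HIST1 with no scaling factors, and 1.13 for HIST1 with RLE factors.

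Settings were compared gene by gene for the members named by the rule only, and 10 of these, all uncalled, changed sign over both lines under some setting. With 1 library left out, log2 fold changes ran from -0.257 to 0.951 for HIST1H3B, from -0.0201 to 0.239 for HIST1H2BD, from -0.00719 to 0.0951 for HIST1H2BI and from -0.121 to 0.410 for HIST1H2AC. They ran from -0.665 to 0.133 for HIST1H3I, from -0.0266 to 0.224 for HIST1H2AJ, from -0.173 to 0.0686 for HIST1H1B, from -0.133 to 0.0376 for HIST1H4D, from -0.0593 to 0.216 for HIST1H2AI and from -0.175 to 0.150 for HIST1H4L. Without both naive libraries numbered 1, HIST1H1B was at 0.167, HIST1H4D at 0.0876, HIST1H2AI at -0.0484 and HIST1H4L at 0.220. HIST1H2BI was at -0.0461 with upper-quartile and -0.0260 with no scaling factors, and HIST1H2AJ at -0.00255 with upper-quartile factors. The cause was not tested.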
